A study of Mus musculus with 6 samples.

Results

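The endothelial genes described here are 10 mouse genes whose products mark or build the lining of blood vessels: Kdr, Flt1, Tek, Tie1, Cdh5, Pecam1, Esam, Eng, Sox18 and Erg. They were taken by gene symbol from the raw count table, which held 1 row for each of the 10 among 25239 genes. RNA was sequenced in bulk from thyroid organoids, 3-dimensional cultures of thyroid follicles made from mouse embryonic stem cells and enriched for follicles before treatment, in 3 groups of 2 libraries collected on day 31. All libraries came from 1 engineered line, made in G4 RosaLuc cells and carrying the constructs TRE-Nkx2-1-Pax8 and bTg-NES-BrafV637E-ERT2. In this line doxycycline (1 µg/ml, 5 days) switches on the thyroid transcription factors Nkx2-1 and Pax8. The bovine thyroglobulin promoter (bTg) drives an oncogenic Braf kinase, V637E, fused to an oestrogen receptor domain that 4-hydroxytamoxifen (4OHT) activates. Every library received doxycycline and 2 weeks of 8-Br-cAMP, an activator of thyroid differentiation. The control group (cAMP) continued in 8-Br-cAMP with vehicle. The second group (4OHT) received 8-Br-cAMP and 1 µM 4OHT for 5 days, and the third (PD+LY) received 8-Br-cAMP, 1 µM 4OHT, 250 nM of the MEK inhibitor PD0325901 and 5 µM of the PI3K inhibitor LY204002 for 3 days. The methods place the inhibitor treatment after several days of 4OHT alone, so the total time in 4OHT may differ between the last 2 groups.

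Endothelial cells form vessels under the control of a small set of receptors and factors. Vascular endothelial growth factor (VEGF) acts through KDR (VEGFR2), the main signalling receptor, while FLT1 (VEGFR1) binds the same ligand tightly and, in its soluble form, limits it. Angiopoietins act through TEK (TIE2), and TIE1 is its partner receptor without a well-defined ligand. VE-cadherin (Cdh5), PECAM1 and ESAM hold neighbouring endothelial cells together, endoglin (Eng) is a co-receptor for BMP9 and TGF-beta, and SOX18 and ERG are transcription factors of endothelial cells. In the thyroid gland, follicles are wrapped by a dense capillary net. Not all of these genes belong to endothelium alone: Pecam1 is also made by mouse pluripotent stem cells and by blood cells, Eng by stromal and blood cells, and Erg and Tek by blood progenitors. Kdr is also made by mesoderm progenitors, and Flt1 by trophoblast cells.

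The model sets limits to what the groups compare. The bTg promoter is active in thyroid cells, so the Braf fusion is aimed at thyroid cells and not at endothelium. No library received 4OHT without the fusion and no library received 1 inhibitor alone, so 4OHT and Braf activity, or the 2 inhibitors, cannot be told apart. Each library was a pool of several wells, and no source used here says that the 2 libraries of a group came from separate differentiations, so p values measure only the spread between these libraries, which may be technical. In bulk RNA, fewer cells of a type and less RNA per cell cannot be told apart, and this holds for every gene below. Libraries held 14898409 to 20637959 counts. Thyroid markers were present in every library, with all 7 listed thyroid genes at 3 or more counts. Of 6 listed response genes of ERK, the kinase below MEK, 5 fell in PD+LY versus 4OHT, where 4.90% of all tested genes did. These were Spry4, Dusp6, Etv4, Egr1 and Fosl1, the last lost without 4OHT replicate 2. The other, Etv5, did not pass (log2 fold change 0.24, edgeR adjusted p = 0.0755). Etv4, a transcription factor induced by ERK signalling, stood at 22.1 and 20.0 CPM (counts scaled to the normalized library size) in cAMP, 36.8 and 36.6 CPM in 4OHT, and 0.611 and 0.389 CPM in PD+LY. In 4OHT versus cAMP 3 of the 6 had an adjusted p below 0.05 at less than 2-fold, Etv4 higher (0.80 on the log2 scale, edgeR adjusted p = 0.0064) and Dusp6 and Etv5 lower (-0.72 and -0.54, edgeR adjusted p = 0.00489 and 0.00467).

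The promoters of receptor genes are shown first, since 3 of the genes called below are receptors. RefSeq windows upstream of the start site existed for 6 of the 10 genes in GRCm38.p6. The 4 printed here are Kdr, which was called lower in both comparisons with cAMP, its relative Flt1, called lower in PD+LY versus cAMP, and the angiopoietin receptor Tek and the co-receptor Eng, called in no comparison. Each is written 5′ to 3′ on the strand of its gene and ends at the annotated start of the gene, and capitals mark the letters CCGGAA or CAGGAA, or their reverse complements TTCCGG and TTCCTG, which are cores recognised by ETS factors such as ERG.
Kdr, chr5:75978459-75978705, minus strand: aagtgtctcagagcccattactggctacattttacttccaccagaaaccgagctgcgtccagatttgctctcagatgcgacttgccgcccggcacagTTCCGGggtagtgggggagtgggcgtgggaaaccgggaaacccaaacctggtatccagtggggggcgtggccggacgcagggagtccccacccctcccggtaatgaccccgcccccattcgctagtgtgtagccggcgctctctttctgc
Flt1, chr5:147726012-147726261, minus strand: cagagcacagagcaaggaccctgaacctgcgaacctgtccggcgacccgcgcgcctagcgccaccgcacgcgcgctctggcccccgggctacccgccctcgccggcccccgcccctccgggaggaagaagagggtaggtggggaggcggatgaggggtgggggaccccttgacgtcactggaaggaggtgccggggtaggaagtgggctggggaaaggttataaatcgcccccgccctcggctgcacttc
Tek, chr4:94739039-94739288, plus strand: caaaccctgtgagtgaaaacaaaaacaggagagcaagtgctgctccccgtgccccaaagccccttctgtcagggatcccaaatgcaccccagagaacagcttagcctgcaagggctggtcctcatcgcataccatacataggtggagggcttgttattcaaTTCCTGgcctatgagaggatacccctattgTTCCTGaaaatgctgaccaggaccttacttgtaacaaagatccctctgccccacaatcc
Eng, chr2:32646345-32646594, plus strand: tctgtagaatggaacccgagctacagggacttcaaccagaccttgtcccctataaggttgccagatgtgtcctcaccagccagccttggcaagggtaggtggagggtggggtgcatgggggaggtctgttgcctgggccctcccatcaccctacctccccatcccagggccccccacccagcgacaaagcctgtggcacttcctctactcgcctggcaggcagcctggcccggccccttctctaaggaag
The Kdr window held 1 such core, on the reverse strand and 153 bases before the RefSeq start, and it was the CCGGAA form. The Tek window held 2 cores of the CAGGAA form, 89 and 59 bases before the start, both on the reverse strand. None of these letters stood in the Flt1 or Eng windows. Other forms that ETS factors bind were not searched, so these windows are not shown to lack ETS sites. Among all 32851 RefSeq windows of 250 bases, 35.1% held a CCGGAA or CAGGAA core on either strand, 12.0% the first and 25.7% the second. Tie1, whose upstream window lies largely within an annotated exon and is not printed, held 1 CAGGAA core at 209 bases. The letters ACAAAG, a core bound by SOX factors such as SOX18, stood once in the Tek window, 26 bases before the start, and once in the Eng window, 67 bases before it. Either SOX form searched, ACAATG or ACAAAG, stood on either strand in 25.2% of all windows. The Flt1 window held a TATA box, TATAAA, 31 bases before the start, as 12.4% of all windows did on either strand. The windows of Erg are not printed. In 1 of them CAGGAA stood 39, AGATAA (a core of GATA factors) 103 and ACAATG 121 bases before its start. Another held TATAAA 46 bases before its start, and all of these Erg matches were on the reverse strand. AGATAA stood in 9.99% of all windows. These matches describe the letters only, and no binding was measured here.

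Levels were compared between genes per length, as normalized CPM divided by the kilobases covered by annotated exons. In cAMP the order was Pecam1 at 21.1, Eng at 10.7, Esam at 3.14, Cdh5 at 1.89, Tek at 1.71, Flt1 at 1.33, Sox18 at 1.18, Kdr at 1.14, Tie1 at 0.687 and Erg at 0.367 CPM per kb. The library values of Cdh5 and Tek overlapped, as did those of Flt1 and Sox18 and of Sox18 and Kdr. The first 3 places were the same in all groups, with Pecam1 at 27.2 and 24.3, Eng at 10.9 and 9.34, and Esam at 3.57 and 1.74 CPM per kb in 4OHT and PD+LY, although the libraries of Esam and Tek overlapped in PD+LY. The order below them changed. Cdh5 went from the fourth place in cAMP to the sixth in 4OHT at 0.681 CPM per kb, below Tek at 1.07 and Flt1 at 0.981 CPM per kb, whose libraries overlapped. Kdr at 0.228, Sox18 at 0.225 and Erg at 0.223 CPM per kb overlapped in 4OHT, and Tie1 was last at 0.0606 CPM per kb. In PD+LY, Tie1 was again last at 0.110 CPM per kb, with library values that overlapped those of Sox18 at 0.154 CPM per kb, and Sox18 overlapped Erg at 0.165 CPM per kb. Flt1 had moved to 0.544 CPM per kb, below Cdh5 at 0.955 CPM per kb.

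**Figure D1:**
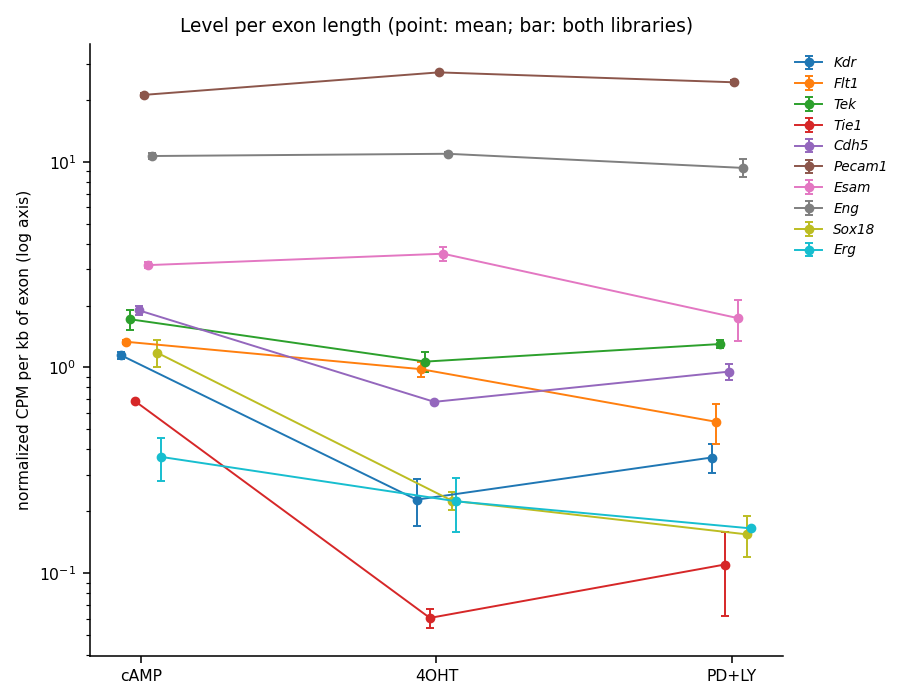
Level of the 10 endothelial genes in each group, as normalized CPM per kb of exon on a log axis; points are the means of 2 libraries and bars span both libraries. Pecam1 and Eng stay at the top in all 3 groups, while the line of Tie1 goes from 0.687 in cAMP to 0.0606 in 4OHT.

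Pecam1 and Eng together made up 74.2 and 74.8% of the summed CPM of the 10 genes in cAMP, 87.1 and 84.9% in 4OHT, and 85.5 and 89.4% in PD+LY. The sum over all 10 was therefore ruled by these 2 genes, at 231 to 238 CPM in cAMP, 248 to 249 CPM in 4OHT and 213 to 220 CPM in PD+LY. Without them the sum was 58.3 and 61.6 CPM in cAMP, 32.0 and 37.7 CPM in 4OHT, and 23.4 and 30.9 CPM in PD+LY. The other 8 genes as a sum were thus highest in both cAMP libraries, with no overlap with either treated group. The sum over all 10 was instead highest in both 4OHT libraries.

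The first comparison, 4OHT versus cAMP, asks what activation of the Braf fusion does. Kdr, Cdh5, Tie1 and Sox18 fell, and the other 6 genes did not pass the 2 thresholds, a change of at least 2-fold and an adjusted p below 0.05. This is 4 of 10 genes lower, where 1.51% of the 15256 tested genes were lower, and the median log2 fold change of the 10 was -0.69 against -0.0021 over all tested genes. None of the 10 rose by edgeR's quasi-likelihood test (0 up, also 0 up by DESeq2), and 1, Pecam1, was higher at an unadjusted p under 0.05. By adjusted p alone 4 were lower and 1 higher, where 4.35 and 4.04% of tested genes were. Sox18 and Tie1 passed the filter on low counts only with the help of the cAMP libraries, where they were high. Of the other 8 genes, 2 were called lower. Both 4OHT libraries lay below both cAMP libraries for 6 genes and above them for 2, where 29.4 and 29.1% of all tested genes were so placed.

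The second comparison, PD+LY versus 4OHT, asks what the inhibitors change once Braf is active. Esam fell, Flt1 was lower by less than 2-fold, and none of the 4 genes that had fallen in 4OHT rose. This is 1 of 10 lower, where 4.90% of tested genes were lower, and 0 higher by edgeR's quasi-likelihood test and by DESeq2, with 0 higher also at an unadjusted p under 0.05. By adjusted p alone 2 were lower and 0 higher, where 12.1 and 10.7% of tested genes were. The median of the 10 was -0.19 on the log2 scale, against 0.0077 for all tested genes. Both PD+LY libraries lay above both 4OHT libraries for 3 genes, Kdr, Cdh5 and Tek, and below them for 5, where 31.1 and 31.2% of all tested genes were so placed.

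The third comparison, PD+LY versus cAMP, sets organoids with active Braf and both inhibitors beside the control. Kdr, Tie1, Flt1 and Sox18 fell, 4 of 10 where 6.24% of tested genes were lower, and 6 of 10 were lower and 0 higher by adjusted p alone, where 13.7 and 12.1% of tested genes were. Of the 8 genes other than Sox18 and Tie1, 2 were called lower. None of the 10 rose by edgeR's quasi-likelihood test or DESeq2 (0 each), and 1, Pecam1, was higher at an unadjusted p under 0.05. The median was -1.06, against 0.0049 for all tested genes. Both PD+LY libraries lay below both cAMP libraries for 9 of the 10 genes, and above them for Pecam1, where 31.2 and 30.2% of tested genes were so placed. The first and the third comparisons share the cAMP libraries, and the second shares its libraries with both, so their values are not independent.

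**Figure D2:**
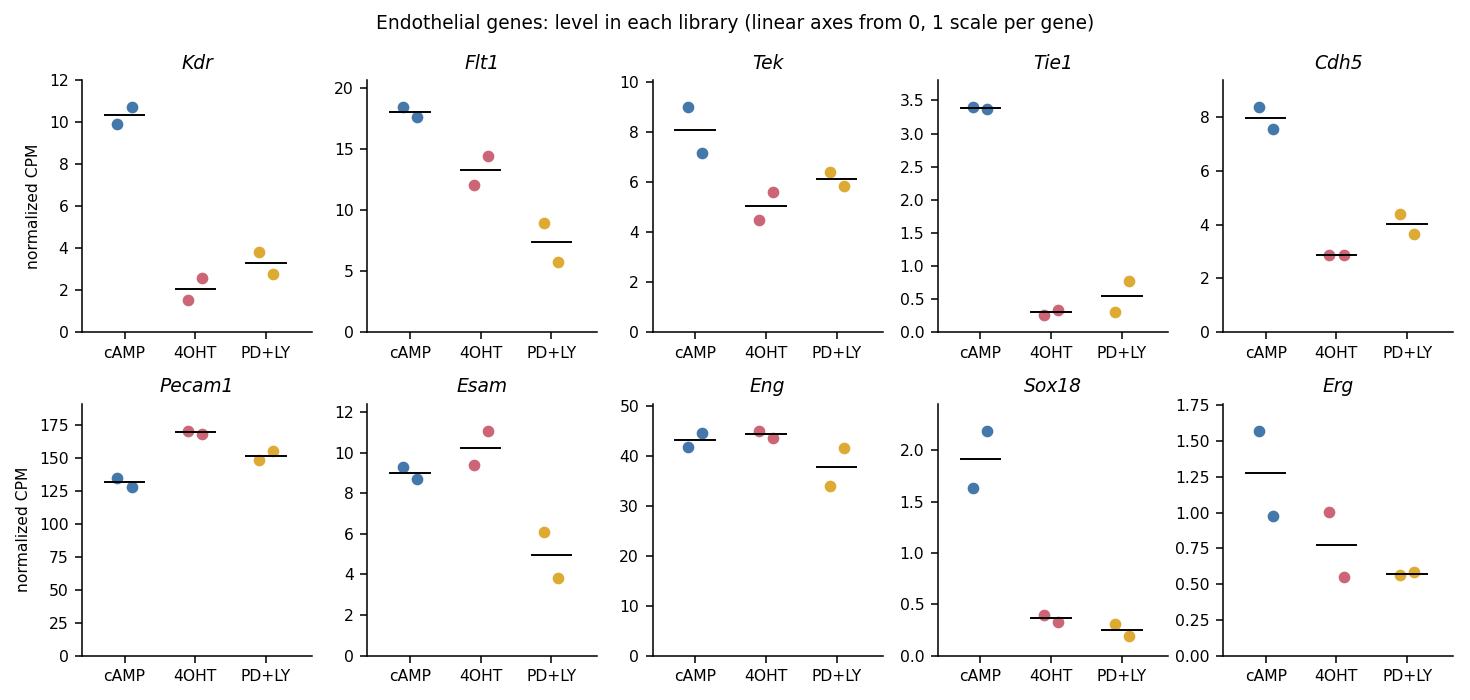
Normalized CPM of each endothelial gene in each library, 1 panel per gene with a linear axis from 0; points are libraries and black lines are group means. Kdr, Cdh5, Tie1 and Sox18 stand highest in cAMP and low in both treated groups, Flt1 and Esam are lowest in PD+LY, and Pecam1 is lowest in cAMP.

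**Figure D3:**
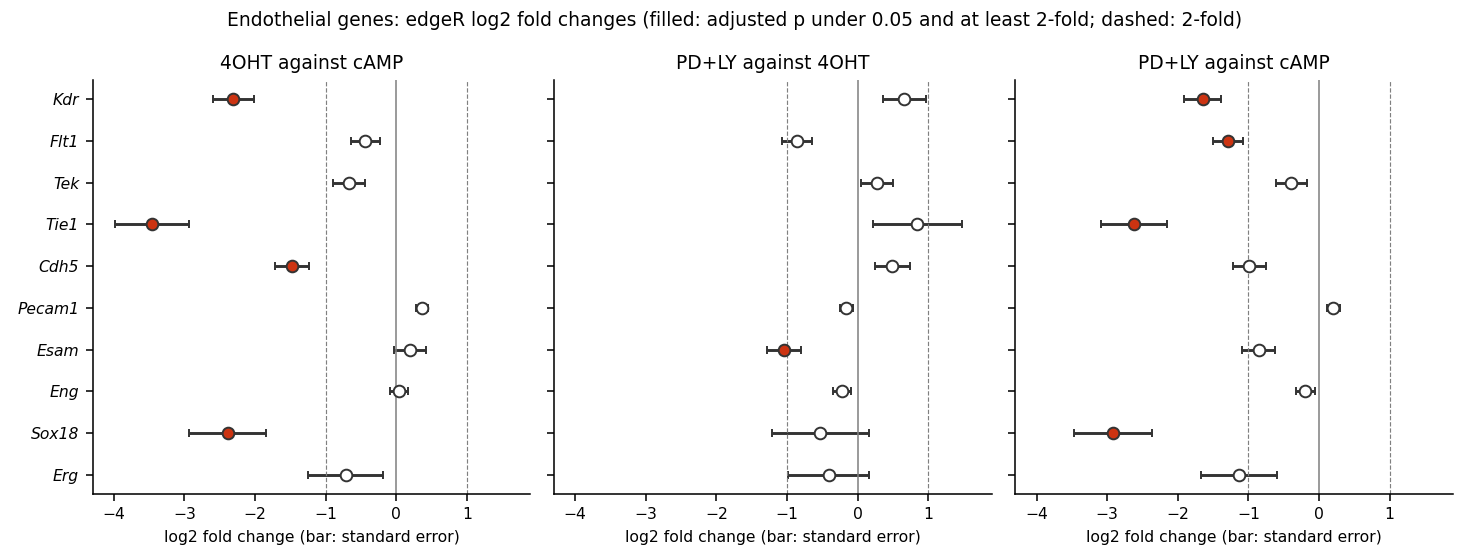
Log2 fold changes of the 10 endothelial genes in the 3 comparisons from edgeR; bars are standard errors, filled points passed both thresholds, and dashed lines mark 2-fold. Filled points are 4 in 4OHT versus cAMP, 1 in PD+LY versus 4OHT and 4 in PD+LY versus cAMP, all on the lower side.

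Kdr was called lower in both comparisons with cAMP, and Flt1 in that of PD+LY. Kdr (chr5:75932827-75978458, minus strand, GRCm38), the main VEGF receptor, was at 9.94 and 10.7 CPM in cAMP, 1.53 and 2.58 CPM in 4OHT, and 3.82 and 2.77 CPM in PD+LY. Both cAMP libraries were far above all others, and the treated groups did not overlap each other. Kdr fell 4.95-fold in 4OHT, with a log2 fold change of -2.31 (SE 0.29, adjusted p = 0.000688, edgeR quasi-likelihood test with Benjamini-Hochberg adjustment). In PD+LY it stood 0.66 above 4OHT on the log2 scale (SE 0.30), which did not pass the test (edgeR adjusted p = 0.139), and it remained 3.14-fold under cAMP (log2 fold change -1.65, SE 0.27, edgeR adjusted p = 0.000889). Both falls kept their calls in every alternative.

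Flt1 (chr5:147561604-147726011, minus strand), the decoy-like VEGF receptor, was at 18.4 and 17.6 CPM in cAMP, 12.1 and 14.4 CPM in 4OHT, and 8.96 and 5.74 CPM in PD+LY. The 3 groups followed each other downwards without overlap. In 4OHT the difference was -0.44 on the log2 scale (SE 0.20) and did not pass the test (edgeR adjusted p = 0.214). Against cAMP, PD+LY was 2.45-fold lower (log2 fold change -1.29, SE 0.21, edgeR adjusted p = 0.000928). Against 4OHT it was lower by less than 2-fold (log2 fold change -0.85, SE 0.21, edgeR adjusted p = 0.0138), and it passed both thresholds without PD+LY replicate 1, at -1.21. Whether Kdr and Flt1 differ in their response was not tested.

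Of the angiopoietin receptors Tie1 fell and Tek did not pass in any comparison. Tek (chr4:94739289-94874976, plus strand), the receptor itself, was at 8.99 and 7.16 CPM in cAMP, 4.47 and 5.60 CPM in 4OHT, and 6.42 and 5.84 CPM in PD+LY. The groups did not overlap, with cAMP highest and 4OHT lowest, yet no difference passed the test: -0.67 in 4OHT versus cAMP (SE 0.23, edgeR adjusted p = 0.0915), 0.28 in PD+LY versus 4OHT (SE 0.23, adjusted p = 0.408) and -0.39 in PD+LY versus cAMP (SE 0.22, adjusted p = 0.212). Tie1 (chr4:118471191-118490061, minus strand), its partner receptor, was at 3.40 and 3.36 CPM in cAMP, 0.267 and 0.329 CPM in 4OHT, and 0.306 and 0.778 CPM in PD+LY. In raw counts these were 54 and 69, then 4 and 6, then 6 and 16. Both cAMP libraries were therefore far above the rest, the 2 treated groups overlapped, and the treated values rest on few counts. Tie1 had the largest fall of the 10 genes in 4OHT, 11.0-fold (log2 fold change -3.46, SE 0.53, edgeR adjusted p = 0.00249), and was 6.13-fold lower in PD+LY than in cAMP (log2 fold change -2.62, SE 0.47, edgeR adjusted p = 0.00168). The step from 4OHT to PD+LY, 0.85 (SE 0.63), did not pass (edgeR adjusted p = 0.36). Without PD+LY replicate 2 this step was 0.025 and the fall from cAMP -3.44, and without PD+LY replicate 1 they were 1.35 and -2.11.

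Of the 3 junction genes, 1 fell in 4OHT, 1 fell with the inhibitors and 1 did neither. Cdh5 (chr8:104101625-104144511, plus strand), VE-cadherin, the adhesion protein of endothelial junctions, was at 8.37 and 7.55 CPM in cAMP, 2.87 and 2.85 CPM in 4OHT, and 4.38 and 3.65 CPM in PD+LY. No groups overlapped, and PD+LY lay between the others. Cdh5 fell 2.77-fold in 4OHT (log2 fold change -1.47, SE 0.24, edgeR adjusted p = 0.00381), a call that was lost without 4OHT replicate 1 at the same size (-1.47, edgeR adjusted p = 0.0536). PD+LY was 0.49 above 4OHT (SE 0.25, edgeR adjusted p = 0.177). Against cAMP it was 1.98-fold lower, just inside the 2-fold limit (log2 fold change -0.99, SE 0.23, edgeR adjusted p = 0.00799), and it passed that limit without cAMP replicate 2 (-1.05) or without PD+LY replicate 1 (-1.12).

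Esam (chr9:37528078-37538319, plus strand), an adhesion molecule of tight junctions, was at 9.31 and 8.72 CPM in cAMP, 9.41 and 11.1 CPM in 4OHT, and 6.11 and 3.84 CPM in PD+LY. The cAMP and 4OHT values lay close together without overlap, and both PD+LY libraries were below them. Esam did not pass in 4OHT (log2 fold change 0.19, SE 0.23, edgeR adjusted p = 0.665). It fell 2.06-fold from 4OHT to PD+LY (log2 fold change -1.05, SE 0.24, edgeR adjusted p = 0.00833). This call rests on single libraries: the change was -0.92 without 4OHT replicate 2 (edgeR adjusted p = 0.0938) and -0.75 without PD+LY replicate 2 (edgeR adjusted p = 0.0281, under 2-fold). Against cAMP, Esam was 1.81-fold lower in PD+LY (log2 fold change -0.86, SE 0.24, edgeR adjusted p = 0.0197), past 2-fold without PD+LY replicate 1 (-1.23).

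Pecam1 (chr11:106654217-106750628, minus strand), the platelet and endothelial adhesion molecule, was at 135 and 128 CPM in cAMP, 171 and 168 CPM in 4OHT, and 148 and 155 CPM in PD+LY. The cAMP libraries were lowest and the 4OHT libraries highest, without overlap. The difference in 4OHT was 0.36 on the log2 scale (SE 0.09, edgeR adjusted p = 0.0271), well under 2-fold, and those of PD+LY were -0.16 against 4OHT (SE 0.09, adjusted p = 0.216) and 0.20 against cAMP (SE 0.09, adjusted p = 0.115). Pecam1 was thus the only gene of the 10 with both PD+LY libraries above both cAMP libraries. Mouse pluripotent cells also make Pecam1, and all 10 listed pluripotency genes, led by Dppa5a, Pou5f1 and Nanog, were at 3 or more counts in every library. Their summed level was 3739 to 3863 CPM in cAMP, 4190 to 4353 CPM in 4OHT and 4445 to 4760 CPM in PD+LY. Dppa5a, a stem cell RNA-binding protein, was 0.33 higher on the log2 scale in 4OHT than in cAMP (SE 0.08, edgeR adjusted p = 0.0224), also under 2-fold. The part of these cells in the Pecam1 level was not tested.

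Eng (chr2:32646595-32682669, plus strand), the BMP9 and TGF-beta co-receptor, was at 41.7 and 44.6 CPM in cAMP, 45.0 and 43.5 CPM in 4OHT, and 34.0 and 41.6 CPM in PD+LY. The cAMP and 4OHT libraries overlapped, and both PD+LY libraries were a little lower. No comparison passed, with log2 fold changes of 0.04 in 4OHT versus cAMP (SE 0.13, edgeR adjusted p = 0.899), -0.23 in PD+LY versus 4OHT (SE 0.13, adjusted p = 0.224) and -0.19 in PD+LY versus cAMP (SE 0.13, adjusted p = 0.3). Eng shares 61 exonic bases with Fpgs, a folate enzyme gene on the opposite strand, and counting took no account of strand, so reads in that stretch could belong to either. No other of the 10 genes shares exonic bases with another annotated gene.

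Both transcription factors had low counts. Sox18 (chr2:181669836-181671640, minus strand), a SOX factor of endothelial and lymphatic development, was at 1.64 and 2.19 CPM in cAMP, 0.400 and 0.329 CPM in 4OHT, and 0.306 and 0.195 CPM in PD+LY. These were 26 and 45 counts, then 6 and 6, then 6 and 4, so both cAMP libraries were well above the others. Sox18 fell 5.23-fold in 4OHT (log2 fold change -2.39, SE 0.54, edgeR adjusted p = 0.0196). The direction held without each library, from -2.58 to -2.15, but the call was lost without any 1 of the 4 libraries compared (edgeR adjusted p from 0.0697 to 0.184). PD+LY was 7.55-fold under cAMP (log2 fold change -2.92, SE 0.56, edgeR adjusted p = 0.00262), and this held in every alternative in which Sox18 could be tested. Its difference from 4OHT was -0.53 (SE 0.69, edgeR adjusted p = 0.617).

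Erg (chr16:95359169-95586593, minus strand), an ETS factor that keeps endothelial cells in their state, was at 1.57 and 0.975 CPM in cAMP, 1.00 and 0.549 CPM in 4OHT, and 0.560 and 0.584 CPM in PD+LY, from 10 to 25 counts a library. The cAMP and 4OHT libraries overlapped, and both PD+LY libraries were under both cAMP libraries. No comparison passed, and the standard errors were wide: -0.72 in 4OHT versus cAMP (SE 0.53, edgeR adjusted p = 0.453), -0.41 in PD+LY versus 4OHT (SE 0.58, adjusted p = 0.642) and -1.13 in PD+LY versus cAMP (SE 0.54, adjusted p = 0.146). At this depth a 2-fold difference in Erg could not be separated from the spread.

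Other genes of the same pathways were read from 6 lists of 81 genes, of which 69 passed the filter. In 4OHT versus cAMP 9 of the 69 fell and 0 rose, where 1.51 and 1.17% of all tested genes did (edgeR quasi-likelihood test, with 4 higher at an unadjusted p under 0.05 and 0 called up by DESeq2). In PD+LY versus 4OHT 10 fell and 1 rose, where 4.90 and 2.35% of all tested genes did. In PD+LY versus cAMP 27 fell and 2 rose, where 6.24 and 3.00% of all tested genes did. Of the 69 genes, 10 passed the filter only with the cAMP libraries, where they were high. Among the other 59, 3 fell in 4OHT versus cAMP, 9 fell and 1 rose in PD+LY versus 4OHT, and 19 fell and 2 rose in PD+LY versus cAMP. The medians over the 69 were -0.24, -0.33 and -0.73 on the log2 scale, also with genes at 0 counts in a group set at their bound.

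**Figure D4:**
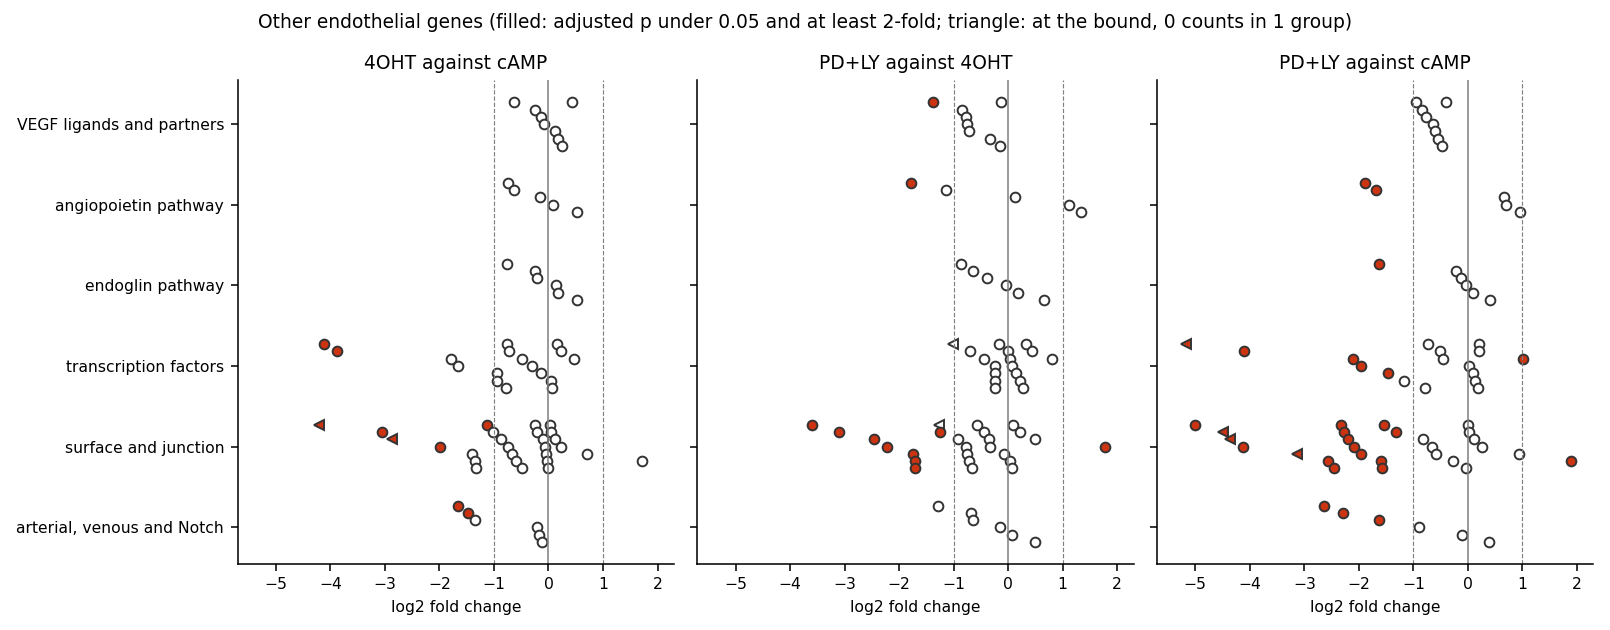
Log2 fold changes of the other endothelial genes by list in the 3 comparisons; each point is a gene, filled points passed both thresholds, triangles are genes with 0 counts in 1 group drawn at their bound, genes with 0 counts in both groups are not drawn, and dashed lines mark 2-fold. Filled points are 9 lower in 4OHT versus cAMP, and 10 lower and 1 higher in PD+LY versus 4OHT. In PD+LY versus cAMP they are 27 lower and 2 higher. Surface and junction genes, the largest list with 27 of the 69 tested genes, hold 5, 8 and 16 of the lower ones.

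The ligands and the partners of the VEGF and angiopoietin receptors were 13 genes, all tested. None passed in 4OHT (0 of 13 by edgeR and 0 by DESeq2, with 1 higher and 1 lower at an unadjusted p under 0.05). Vegfa, the main VEGF ligand, was at 247 and 291 CPM in cAMP, 316 and 411 CPM in 4OHT, and 127 and 153 CPM in PD+LY. Both 4OHT libraries were highest, 0.43 over cAMP on the log2 scale (SE 0.14, edgeR adjusted p = 0.0704), in the group where Kdr was lowest. Vegfa fell 2.60-fold from there to PD+LY (log2 fold change -1.38, SE 0.14, edgeR adjusted p = 5.55e-05). Angpt2, the angiopoietin that opposes TEK signalling in many settings, was at 5.53 and 4.78 CPM in cAMP, 5.80 and 5.16 CPM in 4OHT, and 1.63 and 1.56 CPM in PD+LY. It fell 3.43-fold from 4OHT to PD+LY (log2 fold change -1.78, SE 0.27, edgeR adjusted p = 0.000828). Ptprb, the endothelial phosphatase that acts on TEK, went from 2.83 and 3.80 CPM in cAMP to 1.27 and 0.535 CPM in PD+LY, a 3.68-fold fall (edgeR adjusted p = 0.00675), which was lost without cAMP replicate 2. Its log2 fold change of -1.88 went to -2.62 without PD+LY replicate 1. Of the 6 tested genes of the endoglin pathway, 1 fell, in PD+LY versus cAMP, where 6.24% of all tested genes did. This was Acvrl1 (ALK1), the BMP9 receptor that works with endoglin. It went from 4.03 and 5.90 CPM to 1.48 and 1.75 CPM (log2 fold change -1.62, SE 0.33, edgeR adjusted p = 0.0035). Gdf2, which encodes BMP9, had no count in any library.

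Of the 17 tested endothelial transcription factors 2 fell in 4OHT versus cAMP, where 1.51% of all tested genes did. Both passed the filter on low counts only with the cAMP libraries, where they were high. In PD+LY versus cAMP 5 fell and 1 rose, where 6.24 and 3.00% of all tested genes did. Tal1, a factor of blood and endothelial progenitors, had 48 and 50 counts in cAMP, 2 and 3 in 4OHT, and 0 and 0 in PD+LY. It fell 17.4-fold in 4OHT (log2 fold change -4.12, SE 0.62, edgeR adjusted p = 0.00291), a call lost without 4OHT replicate 1. In PD+LY it was at least 36.1-fold lower than in cAMP, with 3 counts over the group as the floor. Mef2c, Lmo2 and Hey2, factors of vascular and blood development, fell in PD+LY versus cAMP with log2 fold changes of -2.11, -1.96 and -1.46 (edgeR adjusted p = 0.0237, 0.0248 and 0.0405), and each lost its call without either cAMP library or PD+LY replicate 2. Mef2c and Hey2 were not called by DESeq2, Hey2 was lost also without PD+LY replicate 1 or 4OHT replicate 2, and without PD+LY replicate 1 Mef2c and Lmo2 stood at -2.83 and -2.57. The 1 that rose was Klf2, a flow-responsive endothelial factor that mouse pluripotent cells also make, named here after its values were seen. It went from 84.3 and 95.6 CPM in cAMP to 159 and 206 CPM in PD+LY (log2 fold change 1.02, SE 0.12, edgeR adjusted p = 0.000124), under 2-fold without cAMP replicate 1 or PD+LY replicate 2.

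Of the 27 tested surface and junction genes 5 fell in 4OHT versus cAMP, where 1.51% of all tested genes did. In PD+LY versus 4OHT 8 fell and 1 rose, where 4.90 and 2.35% did. In PD+LY versus cAMP 16 fell and 1 rose, where 6.24 and 3.00% did. The 5 include Adgrl4 and Aplnr, which passed the filter on low counts only with the cAMP libraries, where they were high. Adgrl4, an adhesion receptor of endothelial cells, had 35 and 26 counts in cAMP and 0 in each of the 4 treated libraries. It was at least 18.5-fold lower in 4OHT (edgeR adjusted p = 0.0063, lost without either 4OHT library) and at least 22.4-fold lower in PD+LY than in cAMP, with the same floor. Aplnr, the apelin receptor, had 26 and 30 counts in cAMP, 2 and 4 in 4OHT, and 0 and 0 in PD+LY. It fell 8.31-fold in 4OHT (edgeR adjusted p = 0.0191, lost without any 1 of the 4 libraries compared) and was at least 20.6-fold lower in PD+LY than in cAMP.

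Another set of surface genes fell at the step from 4OHT to PD+LY, as Esam did. Robo4, a guidance receptor of endothelial cells, had 29 and 37 counts in cAMP, 6 and 17 in 4OHT, and 2 and 0 in PD+LY. Its counts gave a ratio of 13.9 between 4OHT and PD+LY (exact 95% counting interval 3.44 to 122, edgeR adjusted p = 0.0191), and the call was lost without 4OHT replicate 2 or PD+LY replicate 2. The fitted log2 fold change of -3.60 went to -2.84 and -2.66 without these, and without PD+LY replicate 1 no count was left in PD+LY. Cd93, a lectin-like endothelial receptor, had 38 and 61 counts in cAMP, 22 and 22 in 4OHT, and 0 and 6 in PD+LY. It fell 8.60-fold from 4OHT to PD+LY (log2 fold change -3.10, SE 0.74, edgeR adjusted p = 0.0113), lost without 4OHT replicate 1. The size rests on the PD+LY libraries, with -2.16 without replicate 1 and no count left without replicate 2. The 1 surface gene that rose was Jam2, a junction molecule named here after its values were seen. It was at 39.1 and 28.6 CPM in cAMP, 38.5 and 34.9 CPM in 4OHT, and 133 and 119 CPM in PD+LY (log2 fold change 1.78 from 4OHT, SE 0.14, edgeR adjusted p = 1.44e-05), the opposite direction to Esam.

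Of the 6 tested arterial, venous and Notch genes 2 fell in 4OHT versus cAMP, where 1.51% of all tested genes did. In PD+LY versus cAMP 3 fell, where 6.24% of all tested genes did. Efnb2, the arterial ephrin ligand, was at 42.0 and 48.7 CPM in cAMP, 16.2 and 16.5 CPM in 4OHT, and 13.5 and 15.9 CPM in PD+LY. It fell 2.77-fold in 4OHT, the same fold as Cdh5 (log2 fold change -1.47, SE 0.14, edgeR adjusted p = 0.000119), and 3.09-fold in PD+LY versus cAMP. Notch4, an endothelial Notch receptor, was at 15.8 and 16.5 CPM in cAMP, 4.40 and 5.81 CPM in 4OHT, and 2.60 and 3.99 CPM in PD+LY (log2 fold change -1.65 in 4OHT, SE 0.23, edgeR adjusted p = 0.00144). Both calls held without each library, as those of Kdr and Tie1 did. Dll4, the Notch ligand of arterial and sprouting cells, was at 2.45 and 3.22 CPM in cAMP, 1.07 and 1.15 CPM in 4OHT, and 0.611 and 0.292 CPM in PD+LY, and fell 6.26-fold in PD+LY versus cAMP (log2 fold change -2.65, edgeR adjusted p = 0.00155, and -3.26 without PD+LY replicate 1). Its difference in 4OHT was -1.35 on the log2 scale (SE 0.42, edgeR adjusted p = 0.0712), and it passed both thresholds in 5 of 11 alternatives: with the replicate block, with no filter on low counts, with only the 2 groups compared, and without either PD+LY library (-1.53 to -1.13 over the alternatives).

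Markers of other cells that share genes with endothelium moved in their own ways. Blood cell markers bear on Tek, Erg, Pecam1 and Tal1: 5 of the 12 listed were at 3 or more counts in every library, and Ptprc, Adgre1, Hba-a1 and Hbb-bt, which define white cells, macrophages and red cells, had no count in any. The blood list summed to 81.8 to 87.0 CPM in cAMP, 77.2 to 86.1 CPM in 4OHT and 46.0 to 46.3 CPM in PD+LY, most of it Cd68, a lysosomal protein that other cells also make. Over the 5 blood markers tested the median log2 fold change was -0.14 in 4OHT versus cAMP, the comparison in which Kdr, Cdh5, Tie1 and Sox18 fell. It was -0.89 in PD+LY versus 4OHT, the comparison in which Esam fell. There 2 of the 5 fell, where 4.90% of all tested genes did. In PD+LY versus cAMP, in which Kdr, Tie1, Flt1 and Sox18 fell, the median was -1.03. All 5 were lower there and 3 of them were called, where 6.24% of all tested genes were called lower. The part of blood cells in these values was not tested.

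All 10 markers of pericytes and smooth muscle, the cells that wrap vessels, were at 3 or more counts in every library. Their sum was 294 to 364 CPM in cAMP, 369 to 371 CPM in 4OHT and 472 to 614 CPM in PD+LY, where most of it was Acta2 (smooth muscle actin) and Tagln. Of these 10 genes, 4 rose and 2 fell in PD+LY versus cAMP, where 3.00 and 6.24% of all tested genes did. Acta2 was 1.13 and Tagln 1.24 higher on the log2 scale (edgeR adjusted p = 0.000149 and 0.000594), and both went under 2-fold without cAMP replicate 1 or PD+LY replicate 1 (lowest 0.92 and 0.98). The 2 that fell, named here after their values were seen, were Abcc9, a potassium channel subunit of pericytes, and Pdgfrb, the PDGF receptor of pericytes. Abcc9 was at 14.6 and 13.2 CPM in cAMP, 7.94 and 6.36 CPM in 4OHT, and 4.33 and 2.33 CPM in PD+LY, highest in cAMP and lowest in PD+LY as Flt1 was (log2 fold change -2.06 in PD+LY versus cAMP, edgeR adjusted p = 0.000182). Pdgfrb had a log2 fold change of -1.06 (edgeR adjusted p = 0.000578), under 2-fold without PD+LY replicate 2, and Notch3 was lower by less than 2-fold (-0.84, edgeR adjusted p = 0.000396). Mesoderm progenitor markers, which precede endothelium and include Eomes, Pdgfra and Hand1, summed to 164 to 179 CPM in cAMP, 141 to 165 CPM in 4OHT and 126 to 177 CPM in PD+LY, with 6 of 9 at 3 or more counts in every library. Of the 7 tested, 1 rose and 0 fell in 4OHT versus cAMP (median log2 fold change -0.046), where 1.17 and 1.51% of all tested genes did. In PD+LY versus 4OHT 1 rose and 1 fell (median -1.07), where 2.35 and 4.90% did. In PD+LY versus cAMP 1 rose and 2 fell (median -0.47), where 3.00 and 6.24% did. Eomes fell in PD+LY versus 4OHT and in PD+LY versus cAMP, with log2 fold changes of -1.62 to -0.88 and -2.31 to -1.69 over the alternatives. The first call was lost without 4OHT replicate 2, and the second held in every alternative. Trophoblast markers, led by Tfap2c, with 5 of 8 at 3 or more counts, summed to 96.4 to 97.4 CPM in cAMP, 108 to 111 CPM in 4OHT and 152 to 183 CPM in PD+LY. Tfap2c itself was 0.90 higher in PD+LY than in cAMP on the log2 scale (edgeR adjusted p = 9.52e-05), under 2-fold. Of the 6 trophoblast markers tested, 4 were lower in PD+LY than in 4OHT and 4 lower than in cAMP (medians -0.88 and -0.59). In each comparison 1, Ascl2, fell (log2 fold changes -1.33 and -1.56, edgeR adjusted p = 0.0211 and 0.00767), where 4.90 and 6.24% of all tested genes did.

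Of the 7 thyroid genes 2 fell in 4OHT versus cAMP, where 1.51% of all tested genes did. From 4OHT to PD+LY 5 rose, where 2.35% of all tested genes did. The 7 summed to 1091 to 1637 CPM in cAMP, 558 to 747 CPM in 4OHT and 973 to 1962 CPM in PD+LY, where the 2 libraries differed 2-fold. Tg, the thyroid hormone precursor, fell by 1.10 on the log2 scale in 4OHT (edgeR adjusted p = 0.0304) and rose by 1.20 from 4OHT to PD+LY (edgeR adjusted p = 0.00913). Neither call held by DESeq2. The fall was lost without cAMP replicate 1 or either 4OHT library (-1.37 to -0.76 over the alternatives) and the rise without 4OHT replicate 1 or PD+LY replicate 1 (0.59 to 1.63). Kdr, Cdh5, Tie1 and Sox18 fell in the first comparison and did not pass in the second, with log2 fold changes of 0.66, 0.49, 0.85 and -0.53. The part of a changed make-up of cells in the endothelial values was not tested.

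**Figure D5:**
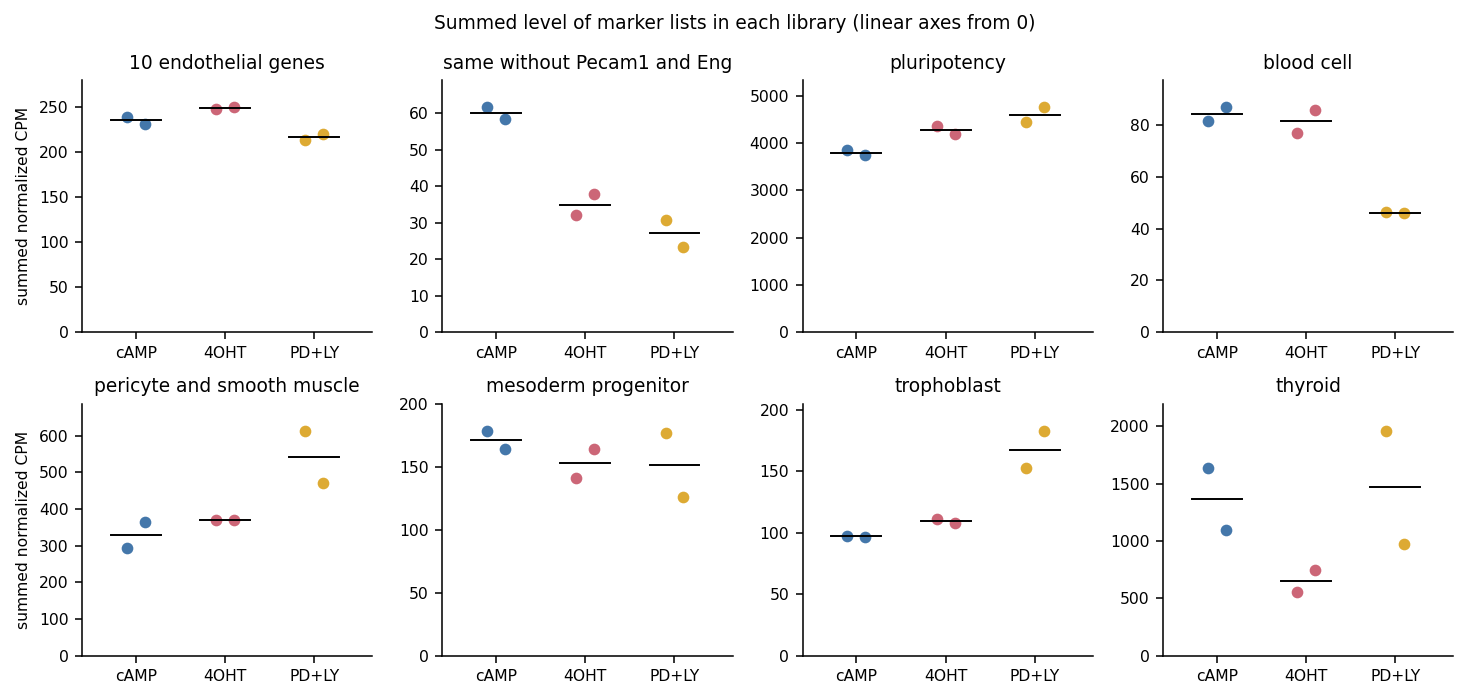
Summed normalized CPM of marker lists in each library, with linear axes from 0; points are libraries and black lines group means. The 10 endothelial genes without Pecam1 and Eng sum to 58.3 to 61.6 CPM in cAMP and 23.4 to 37.7 CPM in the treated groups. The pericyte and smooth muscle list is highest in PD+LY, where most of it is Acta2 and Tagln, and the thyroid list is lowest in 4OHT.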

How the data were processed

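RNA of 6 organoid libraries was prepared with a stranded mRNA kit. According to the methods and the labels, the authors trimmed reads with Trimmomatic, mapped them to mm10 with HISAT2 and counted them with HTSeq in unstranded mode. The deposited file holds the raw counts of 25239 gene symbols, which the authors had not normalized.

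Counts were analysed in R 4.3.3 with edgeR 4.0.16. The filter filterByExpr (minimum count 10, minimum total 15) kept 15256 genes, counts were normalized by TMM, and 1 quasi-likelihood model with 3 groups was fitted to all 6 libraries without a block. The Benjamini-Hochberg adjustment covered every tested gene, and a gene was called at a change of at least 2-fold with an adjusted p below 0.05. CPM are counts scaled to the TMM-normalized library size. In this scale 3 counts correspond to 0.146 to 0.200 CPM, which covers counting error only. Replicates varied beyond counting error (chi-square per degree of freedom 4.47 to 17.3), and the common biological coefficient of variation was 0.105. Positions, exon lengths and overlaps come from GENCODE M21 (GRCm38) and promoters from RefSeq (GRCm38.p6). Scripts were tested on simulated data.

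The 10 genes, the marker lists and the motifs were chosen with earlier results of these data known. All 10 were named, with, from each wider endothelial list, at most 4 called genes of mean 10 or more counts with the largest log2 change, from each other list at most 3 genes with the highest mean CPM, and the 5 genes whose pattern was most like the mean of the 10. Alternatives were DESeq2 1.42.0, RLE factors, a fit of 2 groups only, the fit without a low-count filter or with 10 counts required in each library, a block for the replicate number, adjusted p alone, and leaving out each library. The alternatives for the wider lists were added after the data had been seen.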

Additional observations from a re-analysis of the deposited data

How the results depend on the processing

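The deviations of replicates 1 and 2 correlated by 0.0718 between cAMP and 4OHT, 0.207 between cAMP and PD+LY and 0.0586 between 4OHT and PD+LY. No label says whether libraries with the same replicate number were matched, and these correlations cannot settle it. With the replicate number as a block, 4, 1 and 4 of the 10 genes were called in 4OHT versus cAMP, in the inhibitor step (PD+LY versus 4OHT) and in PD+LY versus cAMP, in this order throughout, as without it, and 513, 1222 and 1481 of all genes in place of 408, 1107 and 1409. Of 30 calls (10 genes, 3 comparisons), 24 were the same in every alternative that could be fitted. Requiring at least 10 counts in every library takes Tie1 and Sox18 out and leaves 2 called genes in each comparison with cAMP, and 3, 7 and 15 of the 9, 11 and 29 wider endothelial genes. By adjusted p alone, 2 of the 10 and 22 wider genes passed in PD+LY versus 4OHT, and 1280, 3469 and 3925 of all genes in the 3 comparisons. Leaving out 1 library gave 2 to 4, 0 to 2 and 4 to 6 called genes of the 10, 2 to 11, 6 to 12 and 21 to 30 wider genes, and 164 to 487, 632 to 1176 and 1118 to 1391 of all genes. In 4OHT versus cAMP the lowest values came without 4OHT replicate 1 (2 of the 10, 2 wider genes, 164 genes in all). All genes also moved by over 1.5 times without cAMP replicate 1 (268) and 4OHT replicate 2 (221), and wider genes without cAMP replicate 1 (5), cAMP replicate 2 (4) and 4OHT replicate 2 (4). In PD+LY versus 4OHT, 0 of the 10 were called without 4OHT replicate 2 or PD+LY replicate 2 and 2 without PD+LY replicate 1, wider genes fell to 7 and 6 without 4OHT replicate 1 and 2, and all genes to 632 without 4OHT replicate 2. The log2 fold change of Eng in 4OHT versus cAMP, 0.04, ranged from -0.014 (without cAMP replicate 1) to 0.091, and that of Erg in PD+LY versus 4OHT, -0.41, from -0.80 to 0.063 (without 4OHT replicate 1). Apart from fewer genes or libraries in a fit, the cause was not tested. Tie1 and Sox18 in the treated groups (4 to 16 counts a library) and Erg (10 to 25) are limited by depth.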

Other observations

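Outside the lists, the genes whose pattern was most like the mean of the 10 endothelial genes (mean of centred log2 CPM) were Kif1a, Grhl2, Scaf11, Tor3a and Kndc1, with Pearson r of 0.998, 0.994, 0.994, 0.993 and 0.993 over 6 libraries among 12136 genes that averaged 50 counts or more. The mean of the 10 was 0.75 and 0.67 in cAMP, -0.34 and -0.27 in 4OHT, and -0.35 and -0.46 in PD+LY. Kif1a, a kinesin motor of neurons and endocrine cells, was at 110 and 111 CPM in cAMP, 41.8 and 43.6 CPM in 4OHT, and 40.6 and 34.5 CPM in PD+LY. Grhl2, an epithelial transcription factor, was at 39.4 and 36.6, then 19.5 and 21.7, then 19.5 and 19.9 CPM. With 6 libraries in 3 groups many genes follow any such pattern, and these values are a description.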
